A study of Mus musculus with 10 samples.

Results

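The hypoxia response genes described here are 10 mouse genes, of 45706 genes in the deposited tables: Hif1a, Epas1 and Hif3a, which encode the oxygen-labile alpha subunits of the hypoxia-inducible factors; Egln1 and Egln3, which encode prolyl hydroxylases that mark those subunits; and Vegfa, Adm, Car9, Bnip3 and Ndufa4l2, which are known target genes. They were chosen by name, on account of their measured levels at the 5 stages of these same libraries, so every stage level and stage difference of these 10 genes is given as a description with no test. All 10 had reads and passed the filter on low counts.

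RNA was measured in 10 libraries, 2 from each of 5 groups, during the reprogramming of mouse embryonic fibroblasts to pluripotency. Mouse embryonic fibroblasts (MEF), day 3, day 6 and day 9 cells are of the strain C57BL/6 x 129 and carry OKSM Col1a1/M2rtTA ROSA26 alleles, that is a doxycycline-inducible cassette of Oct4, Klf4, Sox2 and Myc with its transactivator. The MEF were kept in MEF medium with no doxycycline and were not sorted. Day 3 cells were in embryonic stem cell (ESC) medium with doxycycline at 1 µg/ml and ascorbic acid at 50 µg/ml and were not sorted, and day 6 and day 9 cells were in that medium and sorted for the label SSEA+. The ESC group is the V6.5 line, labelled with the same strain, in ESC medium with irradiated feeders, not sorted; its label names neither the cassette nor doxycycline. Day 3 against MEF therefore joins doxycycline, ascorbic acid, the change of medium and a difference in sex-linked genes given below. Day 6 against day 3 joins time and the sort. ESC against day 9 joins the cell line, the sort, the feeders named for ESC, the labelled doxycycline and ascorbic acid, and sex-linked genes. The parts of each step cannot be told apart. The oxygen level of the cultures is not given in the sources used here. The labels do not say whether the 2 libraries of a group came from separate cultures, so the p-values below measure only the spread between these samples.

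As background, a hypoxia-inducible factor is a dimer of an oxygen-labile alpha subunit with the stable partner Arnt. Prolyl hydroxylases of the Egln family use oxygen, iron and 2-oxoglutarate, with ascorbate as a cofactor, to modify the alpha subunit, and the Vhl ubiquitin ligase then sends it to degradation. The pathway is thus set largely at the protein level, which RNA does not show, and is usually read from its targets: glucose transporters and glycolytic enzymes, growth factors of blood vessels, pH regulators, mitochondrial proteins and collagen-modifying enzymes. Fibroblasts are known for the last of these, and pluripotent cells for a high rate of glycolysis.

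Depth was similar across the libraries, with 29585876 to 38275024 estimated reads each and 16137 to 18522 genes with at least 10 reads. The summed level of 12 fibroblast markers (Col1a1, Col1a2, Thy1, Lum and others) averaged, relative to MEF, 7.59% on day 3, 0.322% on day 6, 0.146% on day 9 and 8.87% in ESC. Of 10 pluripotency markers, all were at 1 CPM (count per standard library size, scaled by TMM) or more in ESC, 9 were at day 9, 8 on day 6, 4 on day 3 and 1 in MEF. The MEF libraries stood apart from the induced cells in sex-linked genes. The Y-linked gene Ddx3y was at 90.6 and 86.4 CPM in the 2 MEF libraries and at 0.0538 to 0.176 CPM in the 6 libraries of days 3 to 9. Xist, the RNA of the inactive X chromosome, was at 0.739 and 0.793 CPM in MEF and at 930 to 1317 CPM from day 3 to day 9. ESC held 26.1 and 26.8 CPM of Ddx3y and 11.3 and 9.00 CPM of Xist, so they too stood apart from the induced cells. The origin of the cells and the stage therefore cannot be told apart between MEF and the induced cells, nor between the induced cells and ESC. None of the 10 genes lies on chromosome X or Y. In these bulk samples, fewer cells of a type and less RNA per cell cannot be told apart either.

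Hif1a (ENSMUSG00000021109.11, chr12:73901375-73947530, plus strand, GRCm38) encodes the alpha subunit that most cell types carry. It was at 270 and 284 CPM in MEF, 94.2 and 99.5 CPM at day 3, 115 and 111 CPM at day 6, 105 and 106 CPM at day 9, and 119 and 116 CPM in ESC. MEF stood above every other group, and the other 4 groups lay within a narrow band without overlap between neighbours in order. The fitted difference of day 3 from MEF was -1.52 ± 0.04 on the log2 scale (2 libraries against 2), which is 2.86-fold lower. The value after ± is an SE from the fit to all 10 libraries, here and below. The later steps were 0.22, -0.10 and 0.15. Hif1a reads were split between the same main transcripts in every library: Hif1a-001 (2508 coding bases) took 52.4% to 63.9% and Hif1a-003 (2430 coding bases) 33.5% to 46.3%.

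Epas1 (ENSMUSG00000024140.9, chr17:86753700-86833410, plus strand), the alpha subunit also called HIF-2 alpha and known from endothelium, went the other way. It was at 13.9 and 13.8 CPM in MEF, 60.2 and 62.8 CPM at day 3, 37.3 and 35.8 CPM at day 6, 38.4 and 39.5 CPM at day 9, and 41.7 and 39.4 CPM in ESC. Day 3 was the highest group and MEF the lowest, and day 9 and ESC overlapped. Day 3 was 4.45-fold above MEF (log2 2.15 ± 0.06, SE) and day 6 was 1.68-fold below day 3. Over the 10 libraries the log2 levels of Hif1a and Epas1 had a Pearson correlation of -0.96, a description over 5 groups of replicates.

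Hif3a (ENSMUSG00000004328.13, chr7:17031507-17062427, minus strand) encodes the third alpha subunit, of which some isoforms are known to inhibit the others. It was at 2.14 and 2.56 CPM in MEF, 0.11 and 0.35 CPM at day 3, 10.2 and 9.47 CPM at day 6, 28.2 and 28.1 CPM at day 9, and 8.16 and 8.63 CPM in ESC. No groups overlapped: day 3 was lowest, day 9 highest, and ESC lay just under day 6. The day 3 value rests on 16 reads over both libraries, 0.225 CPM with an exact Poisson 95% interval of 0.129 to 0.366 that covers counting error only. The fitted difference of day 3 from MEF was -3.37 on the log2 scale, -2.73 without day 3 replicate 1 and -4.41 without day 3 replicate 2, and that of day 6 from day 3 was 5.43, 4.78 and 6.47 in the same order. Day 9 exceeded day 6 by 2.86-fold, and ESC lay 3.35-fold below day 9. ESC exceeded MEF by 3.54-fold.

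Set per length, the balance among the 3 alpha subunits shifted at day 3 and again at day 6. In TPM, the deposited abundance that is corrected for transcript length, the ratio of Epas1 to Hif1a was 0.0342 and 0.0302 in MEF, 0.466 and 0.443 at day 3, 0.201 and 0.196 at day 6, 0.203 and 0.235 at day 9, and 0.221 and 0.214 in ESC. Hif1a stayed the most abundant of the 3 by TPM in each library. The TPM ratio of Hif3a to Hif1a was 0.0116 and 0.00808 in MEF, 0.00108 and 0.00498 at day 3, 0.105 and 0.0712 at day 6, 0.168 and 0.234 at day 9, and 0.0644 and 0.071 in ESC. At day 9, Hif3a, with a mean of 3.06 TPM, came close to Epas1, with 3.35 TPM. Gene TPM sums all transcripts, and a read on a short transcript adds more to it. Hif3a-004, a processed transcript of 374 bases, held 6.6 and 14.5 reads at day 9. The coding Hif3a-002, of 6402 bases, held 870.4 and 1094.4. The Hif3a TPM therefore overstates the coding transcript, and Epas1 has 1 transcript only. The ratios were not recomputed for coding transcripts alone.

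**Figure D1:**
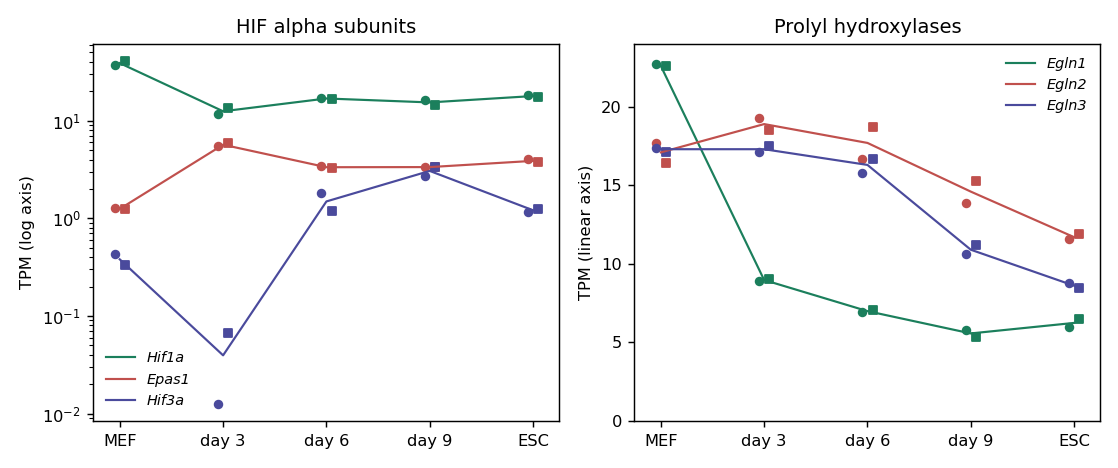
TPM (vertical axis) of the 3 alpha subunits on a log axis (left) and of the 3 prolyl hydroxylases on a linear axis (right) in each stage; circles are replicate 1, squares replicate 2 and lines join group means. Hif1a is the highest alpha subunit at every stage, Hif3a spans from a mean of 0.0395 TPM at day 3 to 3.06 TPM at day 9, and Egln1 passes from the highest hydroxylase in MEF to the lowest at day 3.

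Egln1 (ENSMUSG00000031987.5, chr8:124908587-124949324, minus strand) encodes the hydroxylase that is the main oxygen sensor in most cells and is itself a target of the factors. It was at 160 and 163 CPM in MEF, 63.7 and 61.8 CPM at day 3, 48.5 and 50.1 CPM at day 6, 43.3 and 40.1 CPM at day 9, and 39.9 and 44.3 CPM in ESC. MEF was highest, each induced stage lay below the one before, and day 9 and ESC overlapped. Day 3 was 2.57-fold below MEF (log2 -1.36 ± 0.05, SE).

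Egln3 (ENSMUSG00000035105.5, chr12:54178981-54203860, minus strand) encodes the hydroxylase known for the strongest induction by low oxygen. It was at 90.8 and 91.0 CPM in MEF, 90.0 and 88.4 CPM at day 3, 81.9 and 87.7 CPM at day 6, 58.2 and 62.1 CPM at day 9, and 43.4 and 42.5 CPM in ESC. Its day 3 level lay closer to MEF than that of the other 9 genes, at 98.2% of the MEF mean, and the sign of that small difference was -0.03 on the log2 scale with TMM scaling and 0.18 with scaling by library size. The lower levels came late: 1.41-fold from day 6 to day 9 and 1.40-fold from day 9 to ESC. By TPM, Egln1 exceeded Egln3 in MEF, with ratios of 1.30 and 1.32, and lay below it in the other 8 libraries, with ratios of 0.423 to 0.771. Egln2, the third family member, was at 17.1 TPM in MEF, 18.9 TPM at day 3 and 11.7 TPM in ESC.

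Promoter sequences from RefSeq (GRCm38.p6) were found for 8 of the 10 genes, all but Epas1 and Ndufa4l2. Each window holds 250 bases before to 50 after an annotated start, and was searched on both strands for ACGTG and GCGTG, the core of the hypoxia response element that the factors bind. Of all 32851 windows, 19.6% held ACGTG, 32.4% held GCGTG and 43.8% held either. Bnip3 had 2 ACGTG and 3 GCGTG matches, of which a pair overlap on opposite strands 108 and 107 bases before the start. Adm had 2 GCGTG matches, Egln3 had 1 ACGTG match 229 bases before its start, and Hif3a had 2 GCGTG matches. These 4 are shown because Bnip3 and Adm were low from day 3 or day 6 to day 9, Egln3 stayed near its MEF level to day 6 and Hif3a was highest at day 9. Only bases outside the GENCODE M21 gene are printed, 5′ to 3′ on the gene's strand, with matches to either motif, or its reverse complement, in capitals: Bnip3 at chr7:138909520-138909756 (minus), Adm at chr7:110627407-110627656 (plus), Egln3 at chr12:54203875-54204124 (minus) and Hif3a at chr7:17062428-17062677 (minus).
Bnip3: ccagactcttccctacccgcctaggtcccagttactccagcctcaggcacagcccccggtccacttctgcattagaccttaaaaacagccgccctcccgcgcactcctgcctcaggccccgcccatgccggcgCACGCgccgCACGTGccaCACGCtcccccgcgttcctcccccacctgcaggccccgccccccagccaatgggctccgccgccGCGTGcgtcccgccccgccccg
Adm: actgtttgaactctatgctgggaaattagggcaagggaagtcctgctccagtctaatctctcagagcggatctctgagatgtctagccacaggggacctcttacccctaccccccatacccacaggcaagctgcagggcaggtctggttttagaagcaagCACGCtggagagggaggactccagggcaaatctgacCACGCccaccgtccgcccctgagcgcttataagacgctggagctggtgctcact
Egln3: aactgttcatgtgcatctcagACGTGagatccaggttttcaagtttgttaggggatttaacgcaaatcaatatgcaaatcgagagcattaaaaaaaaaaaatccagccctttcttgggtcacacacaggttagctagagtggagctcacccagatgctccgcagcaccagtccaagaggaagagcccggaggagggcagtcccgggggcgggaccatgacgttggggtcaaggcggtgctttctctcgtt
Hif3a: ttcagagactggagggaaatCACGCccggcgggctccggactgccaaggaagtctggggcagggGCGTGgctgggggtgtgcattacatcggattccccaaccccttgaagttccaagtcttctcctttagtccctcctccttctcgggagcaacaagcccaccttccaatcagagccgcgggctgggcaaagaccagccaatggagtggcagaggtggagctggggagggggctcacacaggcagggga
The same letters also occurred in windows of Hif1a (3 ACGTG), Car9 (1 ACGTG) and Egln1 (1 of each). The window at the first start of Vegfa had none, and one at an internal start had 1 of each. A match is a description of letters, and their use as sites was not tested.

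Vegfa (ENSMUSG00000023951.14, chr17:46016993-46032369, minus strand) encodes the main growth factor of blood vessels. It was at 360.4 and 360.1 CPM in MEF, 14.4 and 14.0 CPM at day 3, 6.59 and 6.20 CPM at day 6, 9.61 and 8.99 CPM at day 9, and 137 and 135 CPM in ESC. It formed a trough with no overlap between groups, lowest at day 6. Day 3 was 25.4-fold below MEF (log2 -4.67 ± 0.04, SE), day 6 was a further 2.22-fold lower, and ESC was 14.7-fold above day 9 and 2.65-fold below MEF.

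The makeup of the Vegfa transcripts also differed between stages. The transcript Vegfa-008 (438 coding bases in GENCODE M21, against 1104 for Vegfa-001) took 10.2% and 9.7% of the Vegfa reads in MEF, 36.1% and 45.0% at day 3, 37.6% and 58.0% at day 6, 31.4% and 29.8% at day 9, and 11.4% and 12.9% in ESC. The 6 induced libraries lay above the other 4. These libraries held only 205 to 534 Vegfa reads, and the split among transcripts was unstable at that depth: Vegfa-001 took 49.4% in one day 9 library and 2.3% in the other.

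Adm (ENSMUSG00000030790.12, chr7:110627661-110629820, plus strand) encodes adrenomedullin, a peptide that widens and stabilises vessels. It was at 23.0 and 24.9 CPM in MEF, 6.38 and 5.91 CPM at day 3, 0.32 and 0.51 CPM at day 6, 0.90 and 1.09 CPM at day 9, and 4.07 and 5.77 CPM in ESC. Unlike Vegfa, its larger step came between day 3 and day 6: day 3 was 3.89-fold below MEF and day 6 was 14.6-fold below day 3. The 2 day 6 libraries held 28 reads together, 0.417 CPM with an exact Poisson 95% interval of 0.277 to 0.603. The 2.39-fold difference of day 9 over day 6 rests on such counts; without day 6 replicate 1 it was 0.96 on the log2 scale, and without day 6 replicate 2 it was 1.62.

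Car9 (ENSMUSG00000028463.12, chr4:43506966-43513729, plus strand) encodes a carbonic anhydrase of the cell surface that is a classic marker of hypoxic tissue. It was low throughout: 7.72 and 7.65 CPM in MEF, 0.59 and 0.68 CPM at day 3, 0.29 and 0.27 CPM at day 6, 0.39 and 0.35 CPM at day 9, and 2.06 CPM in both ESC libraries. The order matched that of Vegfa, with a fitted difference of day 3 from MEF of -3.59 ± 0.23 on the log2 scale (SE) and ESC 5.55-fold above day 9. Only 19 reads at day 6 and 26 at day 9 were counted over both libraries, with exact Poisson 95% intervals of 0.171 to 0.442 CPM and 0.24 to 0.539 CPM, which overlap. The antisense gene Gm12454, which overlaps Car9, was at 1.44 and 1.25 CPM in MEF and 0.781 and 0.916 CPM at day 3, where it lay above Car9. It was at 0.147 and 0.242 CPM at day 6, 0.0321 and 0 CPM at day 9, and 1.15 and 0.869 CPM in ESC. The use of strand in counting is not given in the sources used here.

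Bnip3 (ENSMUSG00000078566.6, chr7:138890836-138909519, minus strand) encodes a mitochondrial outer membrane protein that promotes mitophagy. It was at 330 and 339 CPM in MEF, 27.5 and 25.6 CPM at day 3, 26.2 and 27.6 CPM at day 6, 30.3 and 31.9 CPM at day 9, and 107 and 109 CPM in ESC. The whole drop lay between MEF and day 3, 12.6-fold, day 3 and day 6 overlapped, and ESC was 3.47-fold above day 9. Its relative Bnip3l, with a similar role, was at 177 CPM in MEF, 107 CPM at day 3, 91.6 CPM at day 6, 103 CPM at day 9 and 110 CPM in ESC and was called (edgeR adjusted p under 0.05 over all 20165 genes tested, and at least 2-fold) in none of the 5 comparisons. The TPM ratio of Bnip3 to Bnip3l was 0.718 and 0.815 in MEF, 0.113 to 0.23 in the 6 induced libraries, and 0.407 and 0.403 in ESC.

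Ndufa4l2 (ENSMUSG00000040280.9, chr10:127514967-127517154, plus strand) encodes a relative of the respiratory chain subunit Ndufa4 that is known to be induced by hypoxia and to dampen respiration. It had the widest range of the 10 genes: 173 and 168 CPM in MEF, 0.19 and 0.09 CPM at day 3, 0.26 and 0.24 CPM at day 6, 2.44 and 2.25 CPM at day 9, and 19.0 and 19.6 CPM in ESC. Over both libraries only 10 reads were counted at day 3 and 17 at day 6. The MEF level was 1210 times that of day 3, with a counting interval of 657 to 2520, and 672 times that of day 6, with 420 to 1150. The fitted difference of day 3 from MEF was -10.20 on the log2 scale, -10.85 without day 3 replicate 1 and -9.79 without day 3 replicate 2, and that of day 6 from day 3 was 0.83, 1.48 and 0.42 in the same order. Day 9 then lay 9.10-fold above day 6 and ESC 8.26-fold above day 9.

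Ndufa4, which encodes the ubiquitous subunit, was at 91.4 CPM in MEF and 121 to 132 CPM in the other groups, and it too was never called. The TPM ratio of Ndufa4l2 to Ndufa4 was 0.653 and 0.621 in MEF, 0.000513 and 0.00026 at day 3, and 0.0535 and 0.0549 in ESC. Ndufa4l2 is also known from pericytes and other mural cells. The summed level of 10 mural markers was 5844 and 5960 CPM in MEF, 2056 and 1987 CPM at day 3, 381 and 393 CPM at day 6, 468 and 477 CPM at day 9, and 898 and 948 CPM in ESC; 9 of the 10 were at 1 CPM or more in MEF and 6 at day 3, Higd1b was near 0 in all groups, and the pericyte markers Rgs5 (22.4 CPM in MEF, 0.398 CPM at day 3), Kcnj8 (3.56 and 0.043 CPM) and Abcc9 (7.31 and 0.159 CPM) were lower at day 3 than in MEF. Acta2 made up most of the mural sum in MEF (5194 CPM) and at day 3 (1771 CPM). At day 9 Mcam (265 CPM) and Notch3 (81.7 CPM) made up most of it and lay above their MEF levels of 209 and 75.1 CPM. The part of mural cells in the Ndufa4l2 difference was not tested. Ndufa4l2 shares 32 bases with the opposite-strand gene Shmt2, which was at 320 and 324 CPM in MEF and 109 and 101 CPM at day 3.

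**Figure D2:**
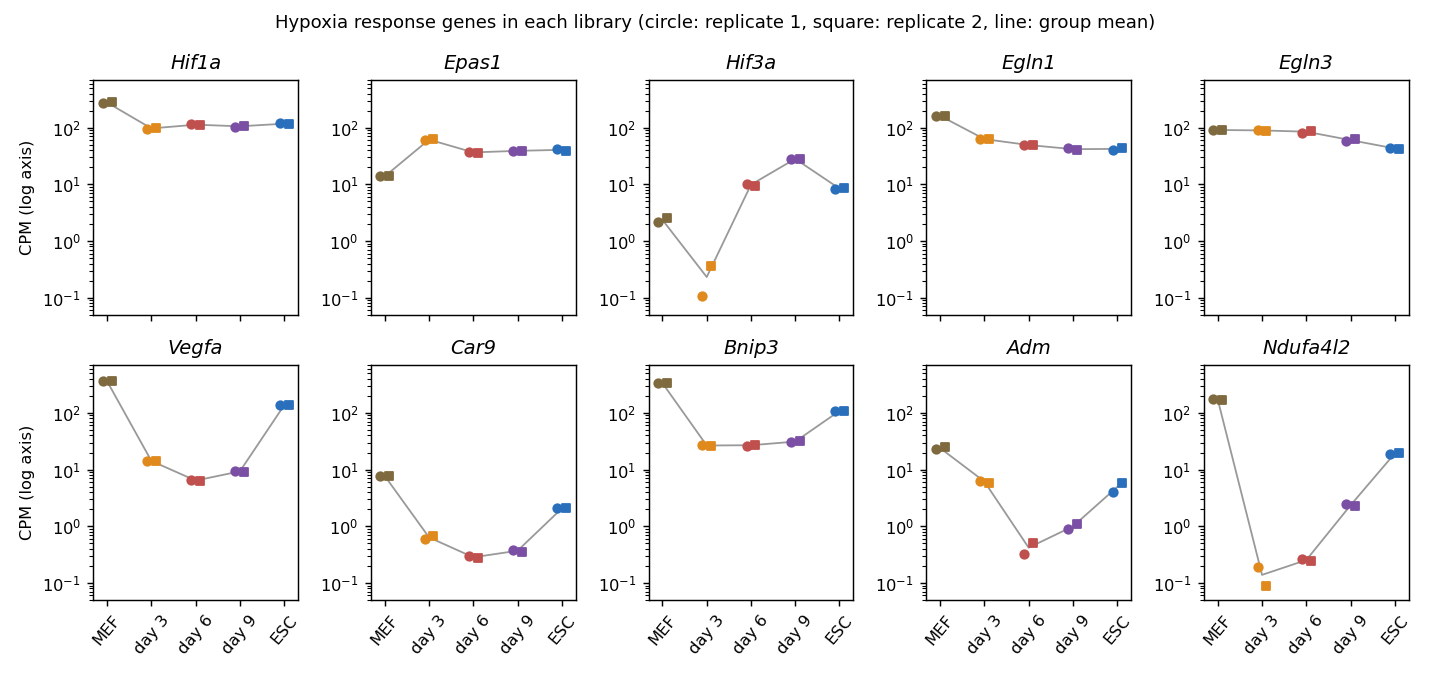
CPM of each of the 10 genes (log axis, the same in all panels) by stage; circles are replicate 1, squares replicate 2 and lines join group means. Vegfa, Car9, Bnip3, Adm and Ndufa4l2 form a trough from day 3 to day 9 with ESC between day 9 and MEF, Egln3 declines late, and Epas1 and Hif3a peak at day 3 and day 9.

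As a share of the MEF mean, the 5 targets stood at 3.94% (Vegfa), 8.28% (Car9), 7.94% (Bnip3), 25.7% (Adm) and 0.0813% (Ndufa4l2) at day 3, beside 7.59% for the fibroblast marker sum and 0.352% (Postn) to 56.6% (Twist1) for single markers. At day 9 the shares were 2.58%, 4.81%, 9.30%, 4.15% and 1.38% in the same order, beside 0.146% for the marker sum, which collagens dominate. Single markers at day 9 ran from 0 (Lum) to 2.87% (Prrx1), with Dcn at 2.50% and Twist1 at 1.80%, so that Vegfa and Ndufa4l2 lay within their range and Car9, Bnip3 and Adm above it. In ESC they were 37.8%, 26.8%, 32.3%, 20.5% and 11.3%. The 12 fibroblast markers were at 1.11% to 14.0% of MEF in ESC, with a median of 8.18%. Vegfa, Car9, Bnip3 and Adm thus stood above each of these markers in ESC, and Ndufa4l2 lay within their range. The part of feeder RNA in the ESC levels was not tested.

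**Figure D3:**
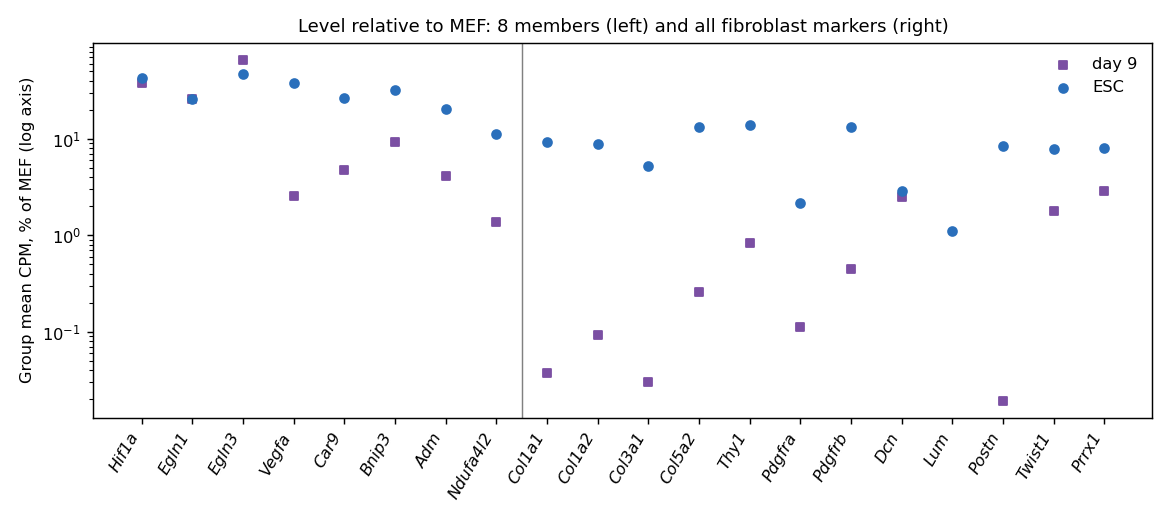
Group mean CPM as a percentage of the MEF mean (log axis) at day 9 (squares) and in ESC (circles), for the 8 of the 10 genes that were lower in ESC than in MEF (left) and the 12 fibroblast markers (right); Lum, at 0 at day 9, is drawn for ESC only. In ESC, Vegfa is at 37.8% and Ndufa4l2 at 11.3% of MEF, against 1.11% to 14.0% for the fibroblast markers.

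Over the 10 libraries, the log2 levels of the targets had Pearson correlations of 0.98 between Vegfa and Car9, 0.97 between Vegfa and Bnip3, 0.96 between Bnip3 and Ndufa4l2, and 0.91 between Vegfa and Ndufa4l2. Adm had lower values: 0.89 with Car9, 0.85 with Vegfa, 0.78 with Bnip3 and 0.66 with Ndufa4l2. Egln3 stood apart from them, with -0.17 against Vegfa. The libraries form 5 groups of replicates, so these values describe the stage pattern and carry no test. The coding genes with the most similar pattern to each were Srxn1 and Sh2d3c for Vegfa (both 0.996), Igfbp4 and Scpep1 for Car9 (both 0.998), Spcs3 (0.997) and Dad1 (0.996) for Bnip3, Tbc1d10a (0.993) and Plac9b (0.992) for Adm, and Adgrd1 (0.996) and Serpinb9b (0.994) for Ndufa4l2. Among the regulators they were Lss (0.995) and Tspyl4 (0.994) for Hif1a, Slc2a8 (0.989) and Gpd1l (0.988) for Epas1, Spire2 (0.989) and Sema5b (0.986) for Hif3a, Ssr3 (0.997) and Scd2 (0.996) for Egln1, and Runx1t1 (0.995) and Pcsk5 (0.994) for Egln3. A correlation takes no account of the size of a change. From MEF to day 3, Spcs3 went from 112 to 67.4 CPM, beside 335 to 26.6 CPM for Bnip3. Igfbp4 went from 218 to 15.3 CPM, beside 7.69 to 0.636 CPM for Car9.

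The receptors of the secreted members also differed between stages. For Vegfa, the receptor Flt1 fell from 156 CPM in MEF to 4.05 CPM at day 3 (log2 -5.26 ± 0.08, SE, edgeR adjusted p = 3.9e-16), fell again to 0.626 CPM at day 6, and rose to 1.48 CPM at day 9 and 34.2 CPM in ESC. Kdr, the main signalling receptor, was low in MEF and at day 3 (2.13 and 1.80 CPM), rose to 11.3 CPM at day 6 (log2 2.65, edgeR adjusted p = 2e-08), and fell to 4.68 CPM at day 9 and 0.822 CPM in ESC. The co-receptors parted: Nrp1 fell at each step from 194 CPM in MEF to 0.749 CPM at day 9, while Nrp2 rose from 87.2 CPM at day 3 to 209 CPM at day 6 and stayed under the 2-fold minimum at day 9 (243 CPM). In ESC, Nrp1 rose to 46.8 CPM and Nrp2 fell to 64.9 CPM. Among related ligands, Vegfc fell at day 3 (13.2 to 2.53 CPM) and rose in ESC (18.3 CPM), Figf, also called Vegfd, fell at day 3 (31.2 to 12.7 CPM) and day 6 (3.80 CPM), and Vegfb was never called, at 24.5 to 32.7 CPM.

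The adrenomedullin receptor is Calcrl joined to Ramp2 or Ramp3, and its parts moved in opposite directions. Calcrl fell from 13.2 CPM in MEF to 0.377 CPM at day 3 (log2 -5.11 ± 0.29, SE, edgeR adjusted p = 1.2e-09) and 0.105 CPM at day 6, and rose to 1.37 CPM in ESC. Ramp3 rose from 4.22 CPM in MEF to 195 CPM at day 3 (log2 5.52 ± 0.06, SE, edgeR adjusted p = 1.1e-17) and stood at 256 CPM at day 6, 167 CPM at day 9 and, after a fall, 6.16 CPM in ESC. Ramp2 rose from 0.840 to 16.4 CPM at day 3 and fell to 4.78 CPM at day 9 and 0.376 CPM in ESC. Adm2, a related ligand, fell from 12.8 to 0.0404 CPM at day 3 and rose to 2.29 CPM in ESC. The Adm2 value at day 3 rests on 3 and 0 reads. Calcrl had 17 and 10 reads at day 3 and 3 and 4 at day 6, so the sizes of these falls are uncertain. As these receptors are known from endothelium, the summed level of 10 endothelial markers is given beside them: 54.9 and 49.4 CPM in MEF, 192 and 188 CPM at day 3, 174 and 173 CPM at day 6, 120 and 121 CPM at day 9, and 167 and 177 CPM in ESC. Of these markers 5 were at 1 CPM or more in MEF, 4 at day 3, 7 at day 6 and day 9 and 6 in ESC, Sox17 was at 0 in MEF and at day 3, and Tek (121 CPM) and Eng (57.2 CPM) made up most of the day 3 sum. The part of endothelial cells in these differences was not tested.

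For the wider pathway, 69 other genes in 5 lists were followed: 14 regulators, 20 genes of glycolysis, 15 of mitochondria, stress and chromatin, 13 secreted or matrix genes and 7 of iron and pH. All but Epo, the hypoxia hormone erythropoietin, had enough reads, which left 68. They are counted by the call rule given above, and "rose" and "fell" are used for called genes only.

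Day 3, the earliest induced stage, was compared with MEF, which also differed from it in sex-linked genes. Of the 10 genes, 1 (Epas1) was past the call rule higher and 8 lower, all but Egln3, beside 14.6% higher and 14.5% lower of all genes tested; the choice of members used this contrast, so nothing is read from that count. Their median was -2.67 on the log2 scale. Of the 68 other pathway genes, 3 rose and 40 fell (4.41% and 58.8%), with a median of -1.35 against 0.08 over all genes tested. Glycolysis had 15 lower and 1 higher of 20. The lactate exporter Slc16a3 fell from 499 to 3.39 CPM (log2 -7.21 ± 0.07, SE, edgeR adjusted p = 6.4e-18) and the phosphofructokinase Pfkl from 515 to 48.6 CPM (-3.41 ± 0.04, edgeR adjusted p = 2.6e-17), whereas the glucose transporter Slc2a3 rose from 43.6 to 169 CPM (1.96 ± 0.03, edgeR adjusted p = 2.5e-15). Several glycolytic genes, such as Ldha, Pgk1, Pgam1, Tpi1 and Eno1, have near-identical pseudogene copies, so their own values are uncertain.

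The secreted and matrix list had 11 lower and 2 higher of 13 at day 3 (84.6% and 15.4%), beside 14.5% and 14.6% of all genes tested. The placental growth factor Pgf was among those that fell (9.22 to 0.180 CPM, log2 -5.63 ± 0.29, SE, edgeR adjusted p = 3.9e-10). Pgf had only 9 and 4 reads in the 2 day 3 libraries, so this SE understates the counting error. The vasoconstrictor Edn1 rose from 8.98 to 66.6 CPM and the growth factor Pdgfb from 1.92 to 12.5 CPM. This list holds collagen-modifying enzymes that fibroblasts express, and the fibroblast marker sum was at 7.59% of MEF. Of the mitochondrial and stress genes 7 of 15 fell, led by Ankrd37 (13.3 to 0.453 CPM) and Higd1a (78.9 to 13.3 CPM), and of iron and pH genes 5 of 6 fell, led by the carbonic anhydrase Car12 (log2 -1.97) and the heme oxygenase Hmox1 (-1.95).

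Among regulators 2 of 14 were called at day 3, each lower (14.3%, close to the 14.5% lower of all genes tested). They were Siah2, a ubiquitin ligase for the hydroxylases (26.0 to 6.39 CPM, log2 -2.02 ± 0.09, SE, edgeR adjusted p = 5.7e-11), and Cited2, a target that competes for the coactivators (77.5 to 25.2 CPM, -1.62 ± 0.06, edgeR adjusted p = 1.6e-11). The partners Arnt (87.8 and 95.0 CPM) and Arnt2 (13.9 and 24.2 CPM), the degradation machinery Vhl (22.6 and 24.6 CPM), Tceb1 (95.7 and 64.6 CPM), Tceb2 (176 and 172 CPM), Cul2 (51.3 CPM in both) and Rbx1 (61.9 and 56.5 CPM), and the hydroxylase Egln2 (60.2 and 61.1 CPM) were not past both thresholds. Nor were Hif1an, the asparaginyl hydroxylase that blocks coactivator binding (37.7 and 64.4 CPM), Siah1a (27.7 and 25.2 CPM), or the coactivators Ep300 (83.2 and 91.5 CPM) and Crebbp (46.2 and 53.3 CPM).

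Scaling by library size in place of TMM moved the median of all genes from 0.08 to 0.29 at day 3 against MEF and from 0.10 to 0.44 for ESC against MEF. The split of all genes past the call rule went from 2950 higher and 2923 lower to 3809 and 2483 for day 3, and from 5142 and 4148 to 6553 and 3152 for ESC.

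Day 6 was compared with day 3, a step that includes the sort. Among the 10 genes, Hif3a was past the call rule higher (1 gene) and Vegfa, Car9 and Adm lower (3 genes), beside 9.26% and 10.2% of all genes tested, and again nothing is read from that. Their median was -0.21. Of the 68 pathway genes 4 rose and 13 fell, with a median of 0.02 against 0.03 over all genes. In glycolysis 3 of 20 rose and 1 fell: Aldoc (log2 1.90, SE 0.06, edgeR adjusted p = 1.3e-12), Slc2a3 (169 to 453 CPM) and Hk2 (64.6 to 158 CPM) rose and Pfkp (-1.23) fell. In the secreted and matrix list 6 of 13 fell and none rose, led by the collagen crosslinker Lox (96.9 to 0.657 CPM, log2 -7.20, SE 0.12, edgeR adjusted p = 7.1e-15). Lox had only 20 and 24 reads in the 2 day 6 libraries, so this SE understates the counting error. Of the stress genes Cox4i2 (-2.57) and Ndrg1 (-1.87) led the 3 that fell, of the iron genes the transferrin receptor Tfrc rose (1.53) while Cp (-3.32) and Trf (-1.24) fell, and of the regulators Cited2 fell to 2.80 CPM (-3.17). The fibroblast marker sum went from 7.59% to 0.322% of MEF over this step, and its part in the matrix genes was not tested.

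Day 9 was compared with day 6, both sorted. A set of 3 of the 10 (Hif3a, Adm and Ndufa4l2) were past the call rule higher and 0 lower, beside 5.18% and 2.68% of all genes. The 3 became 2 without day 6 replicate 1 or without day 9 replicate 2. Their median was 0.30. Of the 68 pathway genes 5 rose, among them Slc16a3 (5.80 to 14.7 CPM, log2 1.34, SE 0.09, edgeR adjusted p = 3.2e-08), Ankrd37 (1.72), Car12 (1.74) and Lox (0.657 to 1.55 CPM, 1.29). The Lox rise rests on few reads, 20 and 24 at day 6 and 32 and 82 at day 9. Its 2 day 9 libraries were at 1.03 and 2.07 CPM. By the call rule 0 fell in edgeR; 21 were lower at an unadjusted p under 0.05, none of them by 2-fold, and DESeq2 called 0, with 17 at an unadjusted p under 0.05. Without day 9 replicate 1 the number lower was 1.

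ESC were compared with day 9 cells to set the sorted intermediates against an established pluripotent line. The 2 groups also differed in cell line, sort, labelled doxycycline and ascorbic acid, named feeders and sex-linked genes, and these parts cannot be told apart. Here 5 of the 10 genes (the targets Vegfa, Car9, Bnip3, Adm and Ndufa4l2) were past the call rule higher and 1 (Hif3a) lower, beside 18.6% and 14.3% of all genes; this contrast too was used by the choice. Their median was 0.97. Of the 68 pathway genes 22 rose and 6 fell (32.4% and 8.82%), with a median of 0.59 against 0.01 over all genes. In the secreted and matrix list 9 of 13 rose, among them Lox (1.55 to 400.5 CPM, log2 7.96, edgeR adjusted p = 8.5e-17), and 2 fell, Edn1 (-2.22) and Pdgfb (-1.75). The fibroblast marker sum stood at 0.146% of MEF at day 9 and 8.87% in ESC, and the part of feeder cells in these rises was not tested.

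Glycolysis had 5 higher and 2 lower of 20 in ESC against day 9 (25% and 10%), beside 18.6% and 14.3% of all genes tested. Slc16a3 rose from 14.7 to 131 CPM (log2 3.16 ± 0.06, SE, edgeR adjusted p = 3.4e-15) and Pfkp from 28.7 to 198 CPM (2.79), while Eno2 (-1.20) and Aldoc (-1.07) fell. Slc2a3, at 689 CPM at day 9 and 1047 CPM in ESC, stayed under the 2-fold minimum. Of the stress genes 4 of 15 rose, with Cox4i2 (2.56) and Ero1l (1.16) among them, and of iron and pH genes Trf (5.16) and Hmox1 (2.29) rose and Car12 fell (-2.14). The regulators Cited2 (3.49 to 40.4 CPM, 3.51) and Siah2 (1.89 to 11.8 CPM, 2.63) rose and Arnt2 fell from 34.2 to 9.67 CPM (-1.83).

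ESC were last compared with MEF, the uninduced fibroblasts. Of the 10 genes 2 (Epas1 and Hif3a) were past the call rule higher and 8 lower, beside 25.5% and 20.6% of all genes, and the choice used this contrast as well. With library-size scaling 8 of the 10 stayed past it. Their median was -1.52. Of the 68 pathway genes 7 rose and 30 fell, with a median of -0.76 against 0.10 over all genes; with library-size scaling 20 fell. Slc2a3 rose most, from 43.6 to 1047 CPM (log2 4.58 ± 0.04, SE, edgeR adjusted p = 2.1e-18), with Hk2 (1.23), the demethylase Kdm4c (1.65), the lipase inhibitor Angptl4 (1.81), Trf (2.48), Tfrc (1.53) and the ligase scaffold Cul2 (1.07). Falls were led by Slc16a3 (-1.93) and Pfkfb3 (-1.93) in glycolysis, Bhlhe40 (-2.93) and Cox4i2 (-2.87) among stress genes, P4ha2 (-3.26) and Edn1 (-3.09) among secreted and matrix genes, and Cp (-3.33) and Car12 (-2.29) among iron and pH genes. Siah2 (-1.13) was the regulator that fell.

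**Figure D4:**
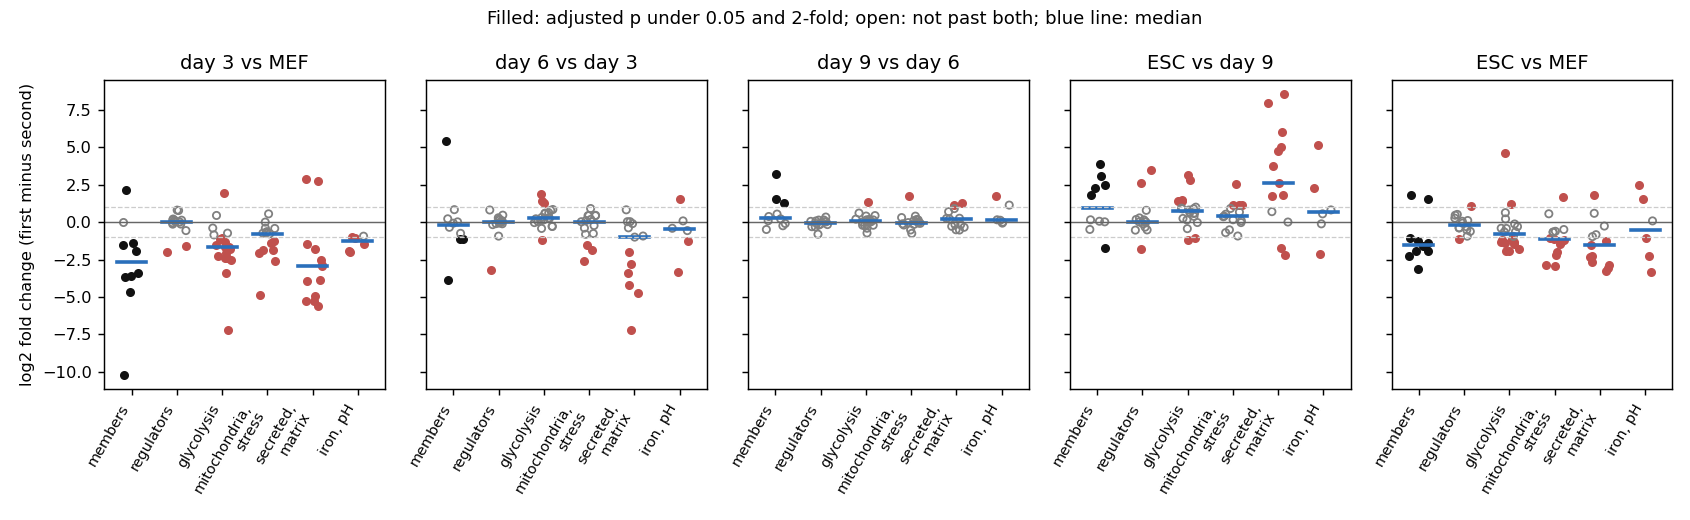
Fitted log2 fold change (first group minus second) of the 10 genes (black) and of the pathway lists (red) in the 5 comparisons; filled points are past an adjusted p of 0.05 and 2-fold, open points are not, and blue lines are medians. Day 3 against MEF puts the median of glycolysis at -1.68 and of secreted and matrix genes at -2.91, and ESC against day 9 puts the latter at 2.62.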

How the data were processed

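Per the labels' protocols, mRNA libraries came from a strand-specific kit and were sequenced as single reads. The authors deposited 1 table per library of 109617 transcripts, with an estimated count of reads per transcript, not normalized, and a TPM value, scaled by effective length to a fixed total, per the file headers; the 10 tables share one set of effective lengths. Salmon 0.8.2 and the build mm10 are named in the submitters' processing notes. Values were summed per gene; estimated counts were rounded. edgeR 4.0.16 (R 4.3.3) kept genes by filterByExpr (minimum count 10, minimum total 15), scaled by TMM, which gives the CPM, and fitted its quasi-likelihood test to all 10 libraries with 1 mean per group. The SE of a fold change is its absolute log2 value divided by the square root of the F statistic of that fit. It can be smaller than counting error alone, above all for large changes on few reads. The members and lists were chosen with earlier results of these data known. Named were all 10 members, all regulators, receptors, ligands and relatives, the 2 largest called rises and falls per other list and comparison, and the 2 genes most similar to each member (log2 CPM, prior count 2, highest group mean at least 5 CPM). Other genes were named after their values were seen, to show a list's range. Positions were looked up by gene ID in GENCODE M21 (GRCm38). Some results under this rule are not reported here. The scripts were tested on simulated data. Replicate tables differed by more than sampling noise. The smallest p of an exact two-sided permutation test at this size is 0.333. Alternatives were DESeq2 1.42.0, limma 3.58.1 on log2(TPM + 1) and log2(TPM + 0.1), other filters and scaling, no fold minimum, a replicate block and each library left out. Depth limits values under about 1 CPM, and intervals are exact Poisson.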

Additional observations from a re-analysis of the deposited data

How the results depend on the processing

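Of the 10 genes' fold changes under the alternatives, 416 moved by less than the spread between replicates, 129 moved by more and 0 of those called changed sign. Leaving out a library or adding a replicate block moves a fold change little by construction. Such settings make up part of the 416, which is therefore no measure of stability. With no fold change minimum the pathway genes higher numbered 10 at day 3 against MEF, 28 at day 6 against day 3, 23 at day 9 against day 6, 46 in ESC against day 9 and 15 in ESC against MEF. In the same order, 7146, 5890, 3162, 7280 and 8140 of all 20165 genes tested were then higher. Pathway genes lower numbered 26, 19, 13 and 50 in the last 4 of these comparisons, beside 5497, 3819, 6748 and 7302 of all genes tested. The members past the rule were then 7 at day 6 against day 3 and 7 at day 9 against day 6. Nothing is read from these 2 counts, as large parts of all genes also passed, by the counts just given. The number of members is smaller with the minimum by construction. With limma on log2(TPM + 1), 2 pathway genes were higher at day 6 and 1 at day 9, 0 were lower in ESC against day 9, and 1 member passed at day 9 against day 6; with log2(TPM + 0.1), 2 were higher at day 6 and 3 at day 9. This scale understates low genes: Hif3a at day 3 against MEF was -0.41 with log2(TPM + 1) and Ndufa4l2 was -6.67. Leaving out a library gave 0 to 1 pathway genes lower at day 9 against day 6. The stricter filter (10 CPM in 2 libraries) left out Car9. The cause of the other shifts was not tested. With a replicate block the counts of pathway genes were those without it, 3 higher and 40 lower at day 3 against MEF, and the counts of members and pathway genes in the other comparisons were unchanged as well. Same-numbered libraries did not deviate together (correlations of -0.02 to 0.022 over 10 pairs of groups), so no pairing by number was detected. A shared effect that is small or limited to few genes would escape this check.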
